A study of Mus musculus with 8 samples.

Results

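The mitochondrial ribosomal protein genes are the nuclear genes for the protein part of the ribosome that works inside mitochondria. They were taken here as every gene of the deposited table whose symbol starts with Mrpl or Mrps followed by a digit, which gave 74 of 14861 genes. Of these, 47 encode proteins of the large subunit and 26 of the small subunit. Mrps30 and Mrps18a carry a small-subunit name but sit in the large subunit and were counted there. The remaining gene, Mrps36, matches the rule by name only, because its protein is a component of the 2-oxoglutarate dehydrogenase complex. A list of symbols of this kind held 78 genes, Mrps36 included. Of these, Mrpl34, Mrpl39, Mrpl41 and Mrpl53 were not among the genes of the table and were not analysed here.

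Transcription was measured by PRO-seq, a run-on assay in isolated nuclei in which engaged RNA polymerases add a labelled nucleotide to the RNA they are making, so that the signal over a gene reads ongoing transcription and not RNA abundance. The cells were a clonal line of mouse induced pluripotent stem cells with the FUCCI2 cell-cycle reporter, grown on irradiated feeder cells in KO-DMEM with FBS, LIF and inhibitors of MEK and GSK3 (2i). The 4 groups were mitotic cells (nocodazole at 200 ng/ml for 6 h, then shake-off), cells released from that arrest into fresh medium for 1 h, cells released for 3 h, and untreated asynchronous cells. Each group has 2 libraries in the labels but 1 combined column in the table, so no difference below has a replicate check, and no test, p-value or spread over libraries is given. Spreads given below are over genes. The mitotic and both released groups had been exposed to nocodazole and the asynchronous group had not, so cell-cycle stage and drug exposure cannot be told apart in comparisons with asynchronous cells. All cells were 1 clone, and released cells are staged by time only.

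Mitochondrial ribosomes translate the few proteins encoded by mitochondrial DNA, all of which are subunits of the oxidative phosphorylation complexes. Their own proteins are made in the cytosol from nuclear transcripts and imported, while their RNAs come from the mitochondrial genome, so assembly needs output from both genomes. Part of the protein set descends from bacterial ribosomal proteins, and the rest was added in the mitochondrial lineage. The transcription factors NRF1, GABPA (an ETS factor, also called NRF2) and YY1 are known regulators of nuclear genes for mitochondrial proteins.

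Promoter sequences from RefSeq (GRCm38.p6), each a 300-base window around a start, were matched to 64 of the 74 genes and to 10665 genes of the table. The RefSeq start equalled the table's start in 9 of the 64, and the distance between them had a median of 31 bp and reached 774 bp. Both strands of the window were searched for 5 motifs, and a match is only a description of the letters. The ETS motif CCGGAAG was found in 22 of the 64 promoters (34.4%) and in 17.9% of all promoters. The NRF1 motif (GCGCA, any base, then GCGC) was found in 12 (18.8% against 10.3%), and the YY1 motif AAGATGGCG in 7 (10.9% against 3.17%). At least 1 of these 3 motifs was present in 35 promoters of the set (54.7%) and in 28.2% of all promoters. Oxidative phosphorylation genes had at least 1 in 33 of 66 promoters, and cytosolic ribosomal protein genes in 29 of 58. By contrast, the SP motif GGGCGG was present in 53.1% of the set against 64.8% of all, and the CCAAT box in 35.9% against 38.3%.

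The sequences shown are the 100 bases before the RefSeq start of genes that lay at an extreme of a comparison below or that are described throughout, with ETS and NRF1 matches in capitals. Mrpl52 kept the lowest share of its signal in mitosis and Mrps22 reached the highest share at 1 h. Mrps12 was the lowest at 3 h against asynchronous cells, Mrps26 showed the largest decrease from 1 h to 3 h, Mrpl43 was among the lowest at 3 h, and Mrpl12 encodes the stalk protein. All are read 5′ to 3′ on the gene's own strand. Their positions are chr14:54426809-54426908 (plus strand), chr9:98601680-98601779 (minus), chr7:28741822-28741921 (minus), chr2:130563657-130563756 (plus), chr19:45006443-45006542 (minus) and chr11:120484537-120484636 (plus), in the order of the lines.
Mrpl52: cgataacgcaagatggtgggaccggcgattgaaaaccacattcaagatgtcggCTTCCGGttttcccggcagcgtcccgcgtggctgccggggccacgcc
Mrps22: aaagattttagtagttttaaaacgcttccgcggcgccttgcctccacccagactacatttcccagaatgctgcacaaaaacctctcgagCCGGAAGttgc
Mrps12: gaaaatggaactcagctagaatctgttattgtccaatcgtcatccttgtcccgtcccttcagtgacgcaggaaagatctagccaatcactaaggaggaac
Mrps26: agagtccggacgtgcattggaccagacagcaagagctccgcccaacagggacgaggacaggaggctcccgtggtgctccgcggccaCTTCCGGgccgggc
Mrpl43: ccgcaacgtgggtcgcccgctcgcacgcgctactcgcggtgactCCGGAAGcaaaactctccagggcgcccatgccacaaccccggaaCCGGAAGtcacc
Mrpl12: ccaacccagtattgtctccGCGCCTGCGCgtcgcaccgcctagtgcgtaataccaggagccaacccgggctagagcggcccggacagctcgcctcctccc

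Both Mrpl52 and Mrps22, which lay on opposite sides of the asynchronous signal at 1 h, carry 1 ETS match in this stretch, and Mrpl43 carries 2. The 100 bases printed for Mrps12 hold none of the 3 motifs, but its whole 300-base window does hold an ETS match, and Mrps12 is counted among the 22. Over the promoters matched, genes with and without an ETS match had median log2 ratios of 1 h release to asynchronous cells of 0.19 (22 genes) and 0.40 (42 genes), and of 3 h to 1 h release of -0.16 and -0.26.

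All ratios below are log2 of (signal + 0.1) in the first group over (signal + 0.1) in the second, and because of the pseudocount the change of genes with little signal comes out too small. Shares of the asynchronous signal are given as percentages without it. A gene is called higher or lower where the ratio is at least 2-fold, a rule of size and not a test. No gene of the set was listed at 0 in any group, and none fell under the minimum mean signal of 0.5. Column totals were 16863 in mitosis, 361203 at 1 h, 326086 at 3 h and 309144 in asynchronous cells. No source used here gives the authors' scaling, which sets every comparison between columns. Rescaling the columns to equal medians moved the median gene from -3.89 to 0.05 for mitotic against asynchronous cells and from 0.30 to -0.02 for 1 h against asynchronous cells, so values relative to the median gene are given beside the totals. Of 15 naive pluripotency markers, 14 were in the table, with a median signal of 124 at 1 h, 106 at 3 h and 131 in asynchronous cells. Of 20 fibroblast markers for the feeder cells, 12 were in the table. Their summed signal was 6.79 in mitosis, 185 at 1 h, 164 at 3 h and 113 in asynchronous cells, their median was 0.0946, 2.22, 6.03 and 3.69, and S100a4 and Twist1 were listed at 0 in mitosis. The part of feeder cells in the results below was not tested. Of 17 genes of G2 or mitosis, 12 were at least 2-fold lower and 0 higher at 1 h than in asynchronous cells (9.53% and 17.7% of all genes). At 3 h, 15 were lower and 0 higher (5.14% and 16.9%).

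In mitosis, transcription of the whole set was low. The median gene of the set kept 5.14% of its asynchronous signal, with a range from 1.36% to 20.8%, and the median over all genes was 5.36%. In all 74 genes the mitotic signal was lower by 2-fold or more, against 99.1% of all genes tested, and 0 were higher (0.0208% of all genes), so the count says nothing particular about the set. The median log2 ratio was -4.10, which is -0.21 relative to the median gene, and 3 genes lay at least 2-fold above the median gene (11.7% of all genes did) and 7 at least 2-fold below it (6.29%). The relative value changed with the processing. It was -0.095 with a pseudocount of 0.02 and -0.34 with one of 0.5. With a minimum mean signal of 2.5 it was -0.10, and with equal medians -0.059. The spread over genes was 0.65 (standard deviation of the log2 ratio) against 0.84 over all genes. The interquartile range was 0.82 for the set and 0.88 for all genes. It was 0.57 for cytosolic ribosomal protein genes and 0.87 for oxidative phosphorylation genes.

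The genes that kept the most came from both subunits. Mrpl51, a mitochondrial addition to the large subunit, had a signal of 9.06 in mitosis, 90.3 at 1 h, 52.1 at 3 h and 43.5 in asynchronous cells, so 20.8% was kept. Its start (chromosome 6, 125191801, plus strand) lies 100 bp from that of Ncapd2, a condensin subunit gene read in the opposite direction, whose signals were 1.34, 21.0, 17.3 and 32.9. Mrpl55, also of the large subunit, kept 18.6%, with signals of 1.93 in mitosis and 10.4 in asynchronous cells. Mrps25 of the small subunit kept 13.5%, with 2.64 in mitosis and 19.6 in asynchronous cells. Mrps34 of the small subunit kept 11.6%. Mrps36, the gene outside the mitochondrial ribosome, kept 9.54% and came just ahead of Mrps34 by log2 ratio (-3.07 against -3.08), a measure on which low signals are pulled up by the pseudocount. Mrpl51, Mrpl55 and Mrps25 each overlap another RefSeq gene or have another start within 1000 bp, so part of their signal may belong to a neighbour. Among the 31 genes clear of any other gene or start, the highest log2 ratio was -3.07.

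At the other end, Mrpl52 kept 1.36%, with 0.342 in mitosis against 25.1 in asynchronous cells. Mrpl20, whose bacterial counterpart binds ribosomal RNA early in assembly, kept 1.61% (0.212 against 13.2). Mrpl10 kept 2.14% (0.684 against 31.9). It anchors the stalk that recruits translation factors. Mrps10 had a log2 ratio of -5.09 and kept 2.61%. The mitotic signals of Mrpl52 and Mrpl20 are close to the pseudocount of 0.1, so the order of their ratios is uncertain.

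**Figure D1:**
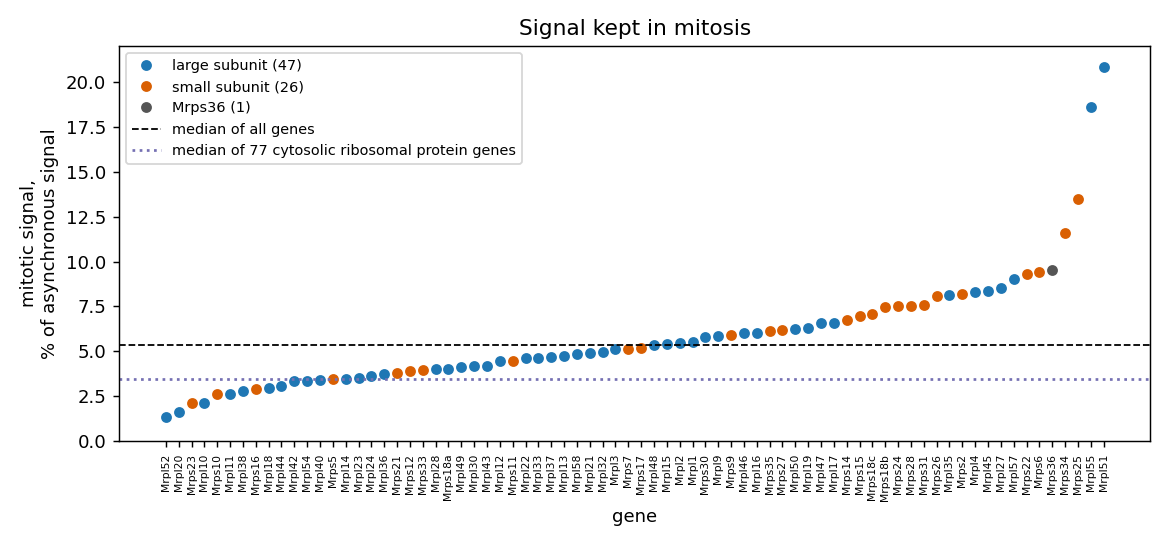
Mitotic signal as a percent of the asynchronous signal for each of the 74 genes, ordered from lowest (Mrpl52, 1.36%) to highest (Mrpl51, 20.8%) and coloured by subunit, with 1 combined column per group and therefore no error bars. The dashed line is the median of all genes (5.36%) and the dotted line that of 77 cytosolic ribosomal protein genes (3.47%); 35 of the 74 points lie above the dashed line.

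Split by subunit, the median share kept was 4.74% for the large subunit and 6.45% for the small subunit, and 18 of 47 large-subunit genes and 16 of 26 small-subunit genes lay above the all-gene median share. The ranges overlapped, at 1.36% to 20.8% and 2.1% to 13.5%. Within the large subunit, the 29 genes with a bacterial counterpart had a median log2 ratio of -4.14 and the 18 without one -4.34. Within the small subunit, the corresponding medians were -3.96 (16 genes) and -3.68 (10 genes). Origin therefore did not order the genes the same way in both subunits.

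By 1 h after release the signal had returned in every gene of the set. The increase from mitosis was 2-fold or more in all 74, against 99.3% of all genes, with 0 lower (0.00692%; 99.8% of all genes were at or above their mitotic signal), and the log2 ratios ran from 3.30 to 5.94 with a median of 4.36 (0.15 relative to the median gene). The value relative to the median gene was 0.0051 with a minimum mean signal of 2.5 and 0.30 with a pseudocount of 0.5. None lay 2-fold below the median gene, where 17.3% of all genes did, and 3 lay 2-fold above it (5.04%). The spread over genes was 0.50 against 0.93 for all genes. The interquartile range was 0.78 for the set and 1.12 for all genes. It was 0.51 for cytosolic ribosomal protein genes and 0.68 for oxidative phosphorylation genes, so a narrow spread was not particular to the set. The largest increase was that of Mrpl20, from 0.212 to 19.0 (log2 ratio 5.94). Next came Mrpl40, a large-subunit protein without a bacterial counterpart (0.445 to 21.0, log2 ratio 5.27), then Mrps22, a small-subunit protein of the same kind (0.952 to 39.2, 5.22). Mrpl28, with a bacterial counterpart, had a ratio of 5.08. The smallest increases were those of Mrpl51 (3.30), Mrps25 (3.42), Mrpl23 (3.59) and Mrps34 (3.59). This ratio uses the same mitotic column as the share kept in mitosis, which was 20.8%, 13.5%, 3.53% and 11.6% for these genes.

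Against asynchronous cells, 57 of the 74 genes were at or above the asynchronous signal at 1 h, compared with 63.7% of all genes. The median gene of the set stood at 132% of its asynchronous signal, and the median of all genes at 124%. There were 3 genes at least 2-fold higher (17.7% of all genes) and 1 lower by as much (9.53%). Measured from the median gene, 2 lay 2-fold above (9%) and 3 below (14.7%), and the median log2 ratio of 0.39 was 0.09 relative to the median gene. With columns rescaled to equal medians or quantile normalized, 40 of the 74 were at or above the asynchronous level (49.3% and 53% of all genes). The shift of the set was thus close to that of the median gene, and the spread over its genes was 0.54 against 0.97 for all genes. The interquartile range was 0.57 for the set and 1.13 for all genes. It was 0.55 for cytosolic ribosomal protein genes and 0.58 for oxidative phosphorylation genes.

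Mrps22 was the highest at 1 h. Its signal was 0.952 in mitosis, 39.2 at 1 h, 24.0 at 3 h and 10.2 in asynchronous cells, so it reached 384% at 1 h and still 235% at 3 h. MRPS22 mutations in humans are a known cause of mitochondrial disease. Mrpl55 had signals of 1.93, 34.7, 23.3 and 10.4 in the same order, or 334% at 1 h, and Mrpl51 reached 207%. Mrps2, counterpart of a bacterial protein on the solvent side of the small subunit, had signals of 4.30, 105, 48.3 and 52.6, a log2 ratio of 0.99 at 1 h. All 4 were lower at 3 h than at 1 h.

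The gene furthest below was Mrpl52, a mitochondrial addition to the large subunit. Its signals were 0.342 in mitosis, 11.0 at 1 h, 25.1 at 3 h and 25.1 in asynchronous cells, which put it at 43.8% at 1 h and 99.9% at 3 h. Mrpl23, whose bacterial counterpart lies at the exit of the peptide tunnel, followed a similar course (0.384, 5.71, 11.8 and 10.9), from 52.5% to 109%. A RefSeq pseudogene of Mrpl23 exists, so reads may be shared between the copies. Mrpl38 (1.56, 33.4, 40.0 and 55.8) and Mrps12 (1.63, 26.1, 17.2 and 41.5) were also low at 1 h and stayed below asynchronous cells at 3 h, at 71.6% and 41.6%. MRPS12 is the counterpart of the bacterial protein at the decoding centre.

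**Figure D2:**
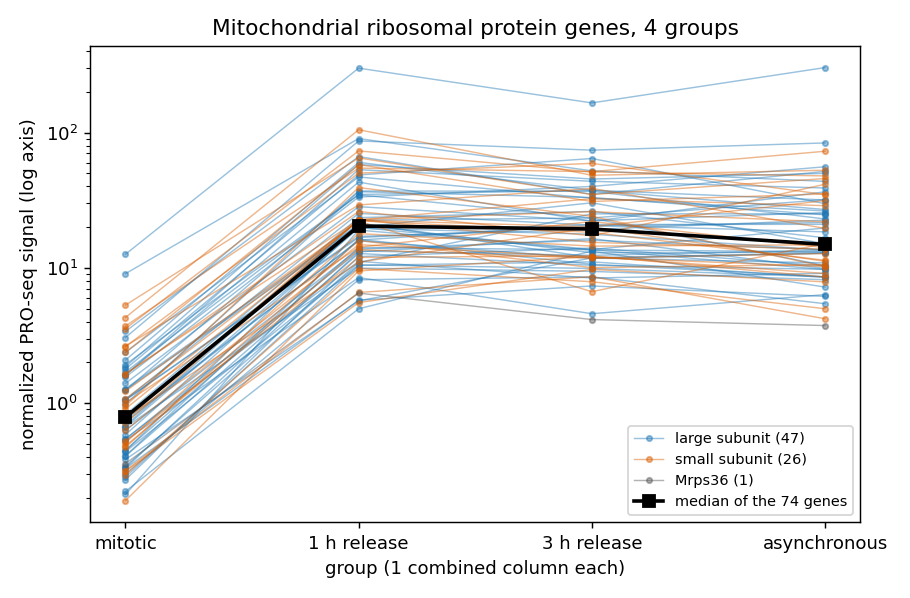
Normalized PRO-seq signal on a log axis for each of the 74 genes (thin lines, coloured by subunit) and their median (squares) in the 4 groups, with 1 combined column per group. The median was 0.788 in mitosis, 20.4 at 1 h, 19.4 at 3 h and 14.9 in asynchronous cells, and every line goes up from mitosis to 1 h, while lines cross between 1 h and 3 h.

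Between 1 h and 3 h the set changed little as a whole, with 46 of 74 genes (62.2%) lower at 3 h against 53.5% of all genes. The median log2 ratio was -0.15, or -0.07 relative to the median gene. At least 2-fold higher were 3 genes (15.1% of all genes) and at least 2-fold lower were 2 (7.52%), and measured from the median gene the counts were again 3 (16.8%) and 2 (5.79%). The set's spread was 0.56 against 0.92 for all genes. The interquartile range was 0.76 for the set and 1.13 for all genes. It was 0.37 for cytosolic ribosomal protein genes and 0.67 for oxidative phosphorylation genes.

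Mrps26, a mitochondrial addition to the small subunit, showed the largest decrease. It had a signal of 1.23 in mitosis, 22.1 at 1 h, 6.67 at 3 h and 15.1 in asynchronous cells, so it was 3.32-fold lower at 3 h than at 1 h and lay at 44.0% of the asynchronous signal. Mrps2 was 2.17-fold lower at 3 h than at 1 h. Both Mrps26 and Mrps2 overlap another RefSeq gene or have another start within 1000 bp. Of the 31 genes clear of any other gene or start, 0 were at least 2-fold lower and 2 higher (7.52% and 15.1% of all genes). Mrpl12, the protein of the flexible stalk that is also reported to bind the mitochondrial RNA polymerase, had signals of 1.62, 43.0, 22.1 and 36.4 (log2 ratio -0.96), and Mrpl17 a ratio of -0.92. The start of Mrpl12 is on chromosome 11 at 120484613 (plus strand), with no other gene overlapping its RefSeq span.

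The largest increase was in Mrpl44, a large-subunit protein with a ribonuclease III-like fold. Its signals were 0.223, 4.99, 13.3 and 7.21, so it was 2.67-fold higher at 3 h than at 1 h and went from 69.1% to 185% of the asynchronous signal. Its start (chromosome 1, 79776116, plus strand) lies 27 bp from that of Wdfy1 on the other strand, and the 2 gene spans overlap. Wdfy1 ran the other way between 1 h and 3 h, with 9.12 and 6.67. No source used here says whether strand was used in counting, so signals of overlapping genes cannot be separated with certainty. Mrpl52 (2.28-fold) and Mrpl23 (2.07-fold) were the other genes at least 2-fold higher, and Mrps15 had a log2 ratio of 0.85.

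At 3 h, 45 of 74 genes were at or above the asynchronous signal (60.8%, against 62.4% of all genes), and the median gene of the set stood at 112%, where the median of all genes was 116%. With equal medians the count was 35 (50.4% of all genes), and with quantile normalization 33 (47.2%). At least 2-fold higher were 4 genes (16.9% of all genes) while 2 were lower by as much (5.14%). Measured from the median gene, 1 lay 2-fold above (12.8%) and 3 below (7.99%), and the median log2 ratio of 0.17 was -0.04. The 4 were Mrps22 (1.22), Mrpl55 (1.16), Mrpl16 (1.11) and Mrps28 (1.01). Mrpl16, whose bacterial counterpart lines the tRNA path of the large subunit, had signals of 1.79, 48.6, 64.3 and 29.8, and Mrps28 had 0.318, 6.58, 8.60 and 4.21, both with their highest value at 3 h. The lower genes were Mrps12 (2.41-fold) and Mrps26 (2.27-fold). Mrpl43 followed at a log2 ratio of -0.87 (12.6, 299, 166 and 302), and Mrpl12 at -0.72. Mrps12 and Mrps26 are not among the 31 genes clear of any other RefSeq gene or start. Of those 31, 0 were at least 2-fold lower and 2 higher (5.14% and 16.9% of all genes).

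**Figure D3:**
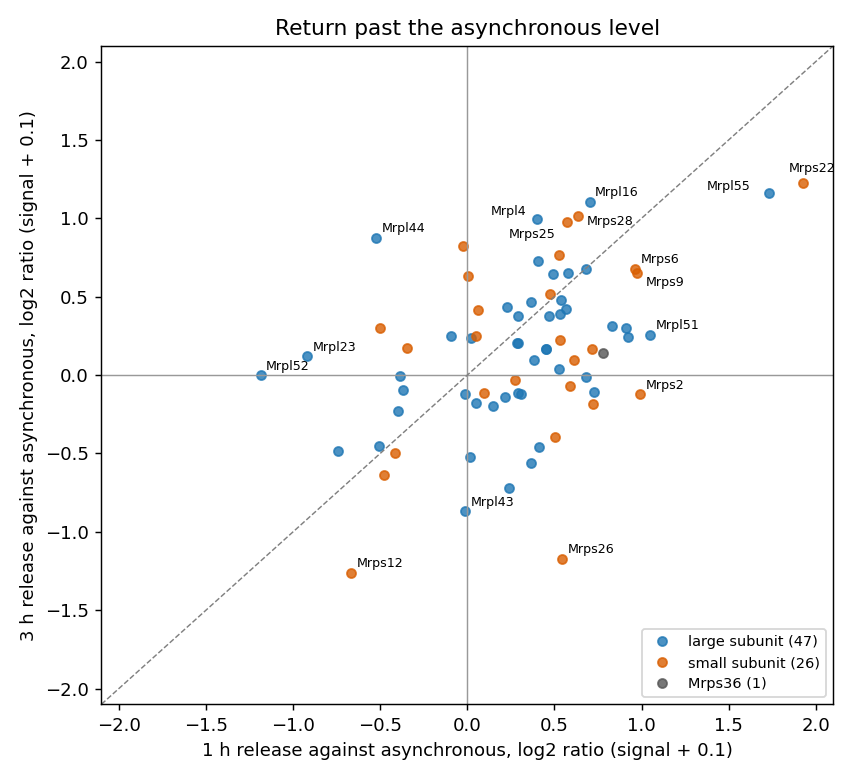
Log2 ratio of (signal + 0.1) to asynchronous cells at 1 h (horizontal) and at 3 h (vertical) for the 74 genes, coloured by subunit, with 1 combined column per group; both axes share the asynchronous column, and the dashed diagonal marks equal values. Points to the right of 0 were above asynchronous cells at 1 h, among them Mrps22 (1.93 and 1.22), while Mrpl52 (-1.19 at 1 h) and Mrps12 (-1.26 at 3 h) lie at the low ends.

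By column, 41 genes of the set (55.4%) had their highest signal at 1 h, 22 (29.7%) at 3 h and 11 (14.9%) in asynchronous cells, against 44.1%, 34.1% and 21.8% of all genes. The authors' deposited table also gives each gene a temporal class, without a description of the classes in the sources used here. Early_Plateau held 34 genes of the set (45.9%, against 26.3% of all genes), Early_Spike 24 (32.4% against 33.6%), Transient 10 (13.5% against 24.7%) and Gradual 6 (8.11% against 15.4%). A high share of Early_Plateau was not particular to the set. It held 35 of 77 cytosolic ribosomal protein genes (45.5%) and 30 of 81 oxidative phosphorylation genes (37.0%). The median share of the asynchronous signal at 1 h and 3 h was 118% and 103% in Early_Plateau, 165% and 118% in Early_Spike, 133% and 181% in Transient, and 61.3% and 72.4% in Gradual. Of the 34 Early_Plateau genes, 27 encode large-subunit proteins (27 of 47) and 7 small-subunit proteins (7 of 26), while 11 of 26 small-subunit genes were Early_Spike and 6 Transient. Whether the classes were made from these columns is not stated, so they are not used as separate evidence.

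Both subunits were close to each other at both times of release. The median log2 ratio to asynchronous cells was 0.36 for the large and 0.51 for the small subunit at 1 h, and 0.16 and 0.20 at 3 h. Among large-subunit genes with a bacterial counterpart, 26 of 29 were at or above the asynchronous level at 1 h, while 10 of the 18 without one were, and the share of all genes was 63.7%. In the small subunit the order was the other way, with 11 of 16 and 9 of 10. The genes that share a name stem were not alike: Mrps18a (0.542, 13.3, 12.4 and 13.5), which belongs to the large subunit, was flat after 1 h. Mrps18b (3.56, 73.2, 51.2 and 47.8) was highest at 1 h. Mrps18c (1.00, 14.2, 22.01 and 14.1) was highest at 3 h. Mrps30 (1.07, 25.3, 20.7 and 18.5) was above asynchronous cells at both times, and Mrpl45 (0.530, 8.48, 4.58 and 6.35), which lies near the membrane-facing tunnel exit, at 1 h only. Mrpl58, the ribosome-bound peptidyl-tRNA hydrolase, was below at both (1.06, 16.8, 20.3 and 21.6).

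The set differed from the genes of the cytosolic ribosome where columns were set against asynchronous cells. The 77 cytosolic ribosomal protein genes kept a median of 3.47% of their asynchronous signal in mitosis and stood at 76.5% at 1 h and 68.9% at 3 h, against 5.14%, 132% and 112% for the mitochondrial set. At or above the asynchronous level at 1 h were 10 of the 77 cytosolic genes and 57 of the 74 mitochondrial ones, and at 3 h 9 and 45 (63.7% and 62.4% of all genes). The highest column was the asynchronous one for 64 of 77 cytosolic genes (83.1%) and for 11 of 74 mitochondrial ones. The difference of the medians was 0.78 on the log2 scale at 1 h and 0.71 at 3 h against asynchronous cells. Over the other settings of scaling, filter, pseudocount and gene choice it ran from 0.50 to 0.78 and from 0.40 to 0.74. The low ends came from quantile normalization. Both filters left these values unchanged, and rescaling to equal medians can hardly move a difference of medians, so those settings are no separate check. In mitosis the difference was 0.73, with a range of 0.53 to 1.19. Each of these differences uses the asynchronous column. In the comparisons without that column the lists were close. The difference was 0.045 for 1 h against mitotic cells and -0.053 for 3 h against 1 h. Neither list is a set of replicates, so no test of this difference was made.

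Genes for the subunits of oxidative phosphorylation, whose mitochondrially encoded partners these ribosomes make, were closer. The 81 genes had medians of 5.42% in mitosis, 144% at 1 h and 109% at 3 h. At 1 h 12 of the 81 were at least 2-fold higher than in asynchronous cells (17.7% of all genes) and 2 lower (9.53%). From 1 h to 3 h 7 were at least 2-fold lower (7.52%) and 0 higher (15.1%; median log2 ratio -0.33, against -0.15 for the mitochondrial ribosomal set). The highest column was 1 h for 55 of the 81 (67.9%).

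**Figure D4:**
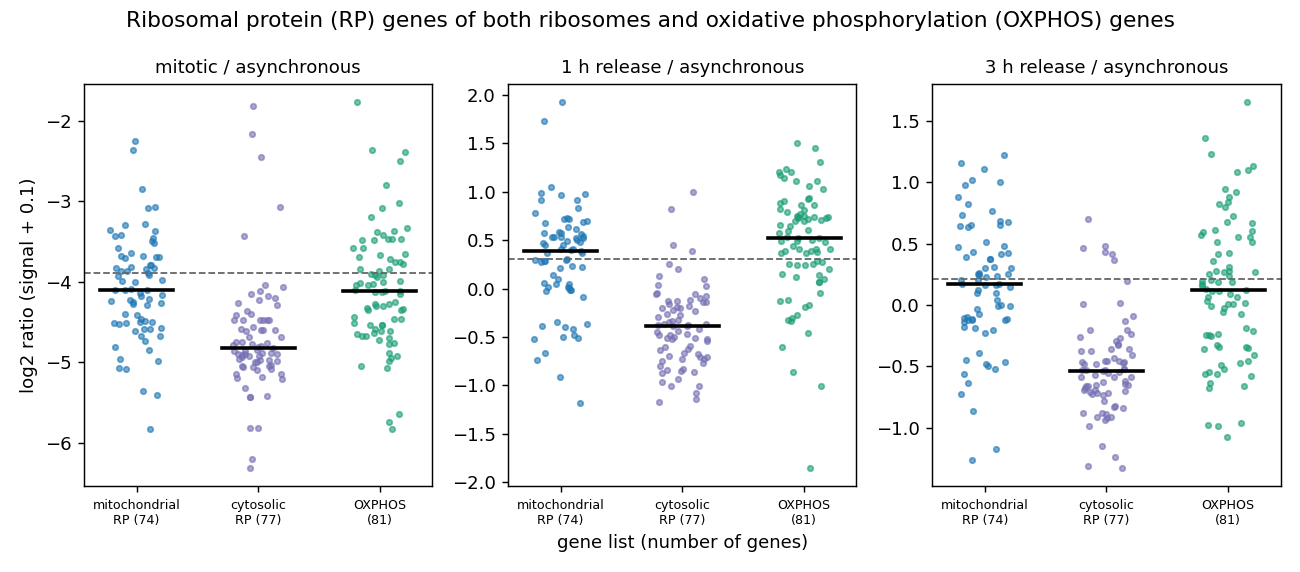
Log2 ratio of (signal + 0.1) to asynchronous cells for each gene of 3 lists (74 mitochondrial ribosomal protein genes, 77 cytosolic ribosomal protein genes and 81 oxidative phosphorylation genes) in mitosis, at 1 h and at 3 h, with sideways scatter added only for visibility and a separate vertical scale in each panel. Thick bars are list medians and the dashed line is the median of all genes; at 1 h the medians were 0.39, -0.39 and 0.52 against 0.30.

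Other genes of mitochondrial protein synthesis were read at 1 h against asynchronous cells, where the 2-fold rule called 17.7% of all genes higher and 9.53% lower. Of 5 mitochondrial ribosomal proteins with other names, 1 was higher and 0 lower. It was Aurkaip1, with signals of 6.19, 136, 61.4 and 55.9, and Dap3 (0.66) and Ptcd3 (0.71) had positive log2 ratios. Chchd1 (-0.33), which was listed at 0 in mitosis, and Gadd45gip1 (-0.31) had negative log2 ratios. Of 25 assembly factors, 3 were higher and 0 lower, with a median of 0.19. They were Noa1, a GTPase that stood at 349% of its asynchronous signal (0.449 in mitosis, 17.3 at 3 h and 7.45 in asynchronous cells), Mrm3, a ribosomal RNA methyltransferase (1.38), and Mterf4 (1.03), which brings the methyltransferase Nsun4 to the ribosome.

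Of 16 translation factors, 2 were higher and 0 lower (median 0.29). The elongation factor gene Tufm went from 0.683 in mitosis to 97.7 at 1 h and 39.6 at 3 h, against 32.7 in asynchronous cells. Lrpprc, which stabilises mitochondrial mRNAs, had a ratio of 1.05. Among 17 mitochondrial aminoacyl-tRNA synthetases, 2 were higher, Nars2 (1.27) and Hars2 (1.05), and 0 lower (median 0.19). Of 7 genes of mitochondrial transcription, 3 were higher and 0 lower (median 0.79), namely Mterf1a (1.18), Mterf2 (1.15) and Tfb2m (1.06), while the polymerase gene Polrmt was at -0.79. None of 8 biogenesis regulators reached 2-fold in either direction (median 0.60). The largest ratios there belonged to Nrf1 (0.746, 25.2, 12.6 and 13.7), Gabpb1, which encodes the partner of GABPA (3.18, 39.8, 59.3 and 21.5), and Yy1 (2.56, 63.7, 31.5 and 35.1). Nrf1 and Yy1 were highest at 1 h and Gabpb1 at 3 h.

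These genes lie on 17 chromosomes, and their RefSeq spans had a median of 7805.5 bp (1170 to 121712 bp) against 21488 bp for all genes, 7131 bp for oxidative phosphorylation genes and 3164 bp for cytosolic ribosomal protein genes. Within 1000 bp of the start, a start of the table read in the opposite direction was found for 25 of the 74 (33.8%), against 10.9% of all genes, 25.9% of oxidative phosphorylation genes and 15.6% of cytosolic ribosomal protein genes. The 25 fall into 24 pairs, since Mrps11 and Mrpl46 are each other's partner, with starts 29 to 866 bp apart.

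The Mrps11 and Mrpl46 starts lie 30 bp apart on chromosome 7, at 78783119 (plus strand) and 78783089 (minus strand), so that a small-subunit and a large-subunit gene share an upstream stretch. The bases between them (chr7:78783090-78783118), read on the plus strand, contain no ETS, NRF1 or YY1 match and are shown because they are all that separates both starts.
Mrps11 and Mrpl46: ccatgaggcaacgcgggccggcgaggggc

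Mrps11 had signals of 0.472 in mitosis, 15.9 at 1 h, 10.05 at 3 h and 10.6 in asynchronous cells, and Mrpl46 had 0.547, 11.2, 8.41 and 9.12. Both were highest at 1 h and just below asynchronous cells at 3 h. Mrps34, a mitochondrial addition to the small subunit (5.31, 65.0, 34.8 and 45.7), and Eme2, a DNA repair nuclease subunit gene (2.15, 52.5, 25.6 and 37.6), have starts 29 bp apart and had the same order of columns. Mrps18c and Helq, also 29 bp apart, did not, since Helq was highest at 1 h (0.740, 20.6, 17.6 and 19.1). Mrps7 and Gga3 (45 bp) and Mrpl36 and the complex I gene Ndufs6 (51 bp) complete the 5 closest pairs. These distances are between the table's starts and depend on annotation. The RefSeq start lies 215 bp from the table's for Mrps7 and 132 bp from it for Mrps18c. Mrpl36 had 1.86, 58.0, 45.3 and 49.9, and Ndufs6 had 0.952, 29.0, 15.1 and 17.2. Over the 24 pairs, both genes were lower at 3 h than at 1 h in 17, both higher in 2, and 5 moved apart. No such count was made for the other divergent pairs of the table, so the 17 cannot be read as particular to these pairs. Genes outside the set with a divergent start also had a negative median for 3 h against 1 h (-0.31).

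The decrease from 1 h to 3 h differed with position and with length. Genes of the set with a divergent start within 1000 bp had a median log2 ratio of 3 h to 1 h of -0.36, and the 49 without one -0.01. The same split was present in the genes outside the set, at -0.31 (1588 genes) and -0.04 (13199 genes), so it was not particular to mitochondrial ribosomal proteins. By length, the 25 shortest genes of the set had a median of -0.35, the middle 24 of -0.25 and the 25 longest of -0.01, against -0.12, -0.06 and -0.13 for the genes of the table in those ranges. How far length and divergent starts account for each other was not tested. The 31 genes clear of any other RefSeq gene or start had a median of 0.04 and the other 43 of -0.31. The median of -0.15 therefore changes sign when only clear genes are kept.

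At 1 h against asynchronous cells, the comparison with other genes changed with gene length. The 25 shortest genes of the set (up to 5428 bp) had a median log2 ratio of 0.45, while the 2067 genes of the table in that length range had 0.08. The middle 24 had 0.34 against 0.11 for 1603 genes, and the 25 longest 0.48 against 0.39 for 9521 genes. In the short and middle ranges the set was thus further above genes of like length than above all genes, where the difference was 0.09, and in the long range the difference was about the same as over all genes. At 3 h the medians of the shortest group were 0.00 for the set and -0.04 for the genes of like length.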

How the data were processed

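The labels list 8 PRO-seq libraries in 4 groups. The deposited table holds a normalized signal per gene, made by the authors, in 1 combined column per group, and a temporal class per gene, a text label deposited by the authors. Its early G1 column was matched to the 1 h release and its late G1 column to the 3 h release by meaning. The submitters' processing notes name the build GRCm38 (mm10) and, without versions, Picard, SAMtools, Bowtie2 and cutadapt. The sources used here do not give the method of counting, use of strand, scaling or pooling. In the absence of counts, depth is unknown, and intervals and floors are left out.

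Ratios were computed in Python 3.11.15 (pandas 2.3.3, numpy 2.4.6) as log2 of (signal + 0.1), for genes with a mean signal of at least 0.5 (47 removed, 14814 kept, all 74 members kept). Genes listed at 0 in a column (431 over the 4 columns) were left out of ratios that use it. Tests planned for library columns could not be run with 1 column per group, and a 2-fold rule took their place. The 2-fold calls were run on copies of the asynchronous column with known larger changes put in and no noise added. Such a run checks only the arithmetic and says nothing about false calls in real libraries. Spans and promoters are those of RefSeq GRCm38.p6, while distances within divergent pairs use the table's starts. The table's starts were read as 1-based, since on the plus strand 1445 lay at offset 0 from a RefSeq start and 39 and 64 at 1 bp to either side.

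The set and the gene lists were chosen with earlier results of these data known. Named genes are, for each of 5 comparisons, the 4 highest and 4 lowest of the set, those 2-fold from the median gene between 1 h and 3 h, 9 genes given always (Mrpl12, Mrps12, Mrpl58, Mrps30, Mrps18a, Mrps18b, Mrps18c, Mrps36 and Mrpl45), the 5 closest divergent pairs, and up to 3 genes per other pathway list with the largest change. Polrmt, Chchd1, Gadd45gip1, Wdfy1 and Ncapd2 were named after their values were seen. Alternatives tried were other pseudocounts, filters, scalings and fold thresholds, and only genes clear of others.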

Additional observations from a re-analysis of the deposited data

How the results depend on the processing

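No paired analysis was possible because the table has 1 combined column per group; for the same reason leaving out a replicate could not be run. Counts at or above asynchronous cells and differences from cytosolic ribosomal protein genes were added after seeing the data. Scaling limits both comparisons with mitosis, and equal medians remove the common shift by construction. Counts at least 2-fold higher and lower are given with the shares of all genes and the member median in brackets. With equal medians they were 4 and 4 for mitotic against asynchronous cells (9.55% and 7%, -0.012). For 1 h against mitotic they were 2 and 2 (4.95% and 13.7%, -0.026). Against asynchronous cells, 1 h gave 2 and 3 (8.71% and 14.9%, 0.072), and 3 h gave 1 and 3 (12.9% and 7.91%, -0.036). For 3 h against 1 h they were 3 and 1 (17.4% and 5.19%, -0.037). With quantile normalization they were 3 and 5 for mitotic against asynchronous cells (8.56% and 6.73%, -0.027). For 1 h against mitotic they were 2 and 2 (5.53% and 8.88%, 0.0035). Against asynchronous cells, 1 h gave 2 and 4 (9.3% and 11.2%, 0.043), and 3 h gave 2 and 2 (11.1% and 10%, -0.018). For 3 h against 1 h they were 4 and 2 (10.8% and 8.25%, -0.012). Relative to the median gene, 1 h against mitotic turned to -0.016, 3 h against 1 h to 0.055 and 1 h against asynchronous to -0.011. A pseudocount of 0.02 gave medians of -4.23 (mitotic against asynchronous) and 4.53 (1 h against mitotic), and one of 0.5 gave -3.58 and 3.87, where the difference from cytosolic genes for 1 h against mitotic turned to -0.38. A minimum mean signal of 2.5 turned the median of 3 h against 1 h relative to the median gene to 0.029. With the 31 clear genes (fewer genes by construction), all 31 were lower in mitosis than in asynchronous cells (99.1% of all genes). All 31 were higher at 1 h than in mitosis (99.3%, median 4.49). By the same 2-fold rule, 2 of the 31 were higher and 0 lower at 3 h than at 1 h (15.1% and 7.52%). The median there was 0.040 (0.12 relative to the median gene, 0.14 above cytosolic genes). Against asynchronous cells, 1 was higher and 1 lower at 1 h (17.7% and 9.53%). At 3 h, 2 were higher and 0 lower (16.9% and 5.14%). At or above asynchronous cells were 23 at 1 h and 22 at 3 h (63.7% and 62.4%). At a 1.5-fold threshold, 7 were higher and 17 lower at 3 h than at 1 h (24.8% and 23.5% of all genes), 19 higher and 4 lower at 1 h against asynchronous (36.4% and 17.2%), and 16 and 5 at 3 h (30.5% and 12.3%). The cause of each change not set by construction was not tested.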
